A study of Mus musculus with 2 samples.

Results

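The genes described here are 37 genes of lipogenesis and cholesterol synthesis, chosen by name from the 24421 gene symbols in the count table. They cover fatty acid synthesis, desaturation and elongation, the esters of sebum, and the pathway to cholesterol with its regulators. The RNA came from back skin, taken in all its layers, of wild type C57BL6/J mice, with 1 library of skin stretched over 5 days, with 33% strain in the labels (stretched skin), and 1 library of non-stretched skin at day 5 (control skin). The mice of the study were 8-week-old females whose hairs were in telogen, the resting phase of the hair cycle, and the device was fixed to the back skin with glue. The methods give such a strain as the initial one, raised every day. How many mice stand behind each library is not given in the sources used here, and with 1 library per condition no difference has a replicate check. All 37 genes were in the table and all had at least 20 counts over both libraries.

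Skin makes lipid in several places. Sebaceous glands synthesize wax esters, cholesterol esters and triglycerides for sebum, the adipocytes under the dermis synthesize and store triglycerides, and the epidermis makes cholesterol, ceramides and very long chain fatty acids for its water barrier. Fatty acid synthesis is largely driven by the transcription factor SREBP-1, cholesterol synthesis by SREBP-2, and both factors are held in the endoplasmic reticulum by INSIG proteins when sterols are plentiful.

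The control library held 14152379 counts and the stretched library 11648655, so that 3 counts, the floor used here, correspond to 0.212 and 0.258 CPM (counts per 1000000 counts of the library). Epidermal markers were abundant in both libraries. Of the 8 markers, 5 were higher and 3 lower in stretched skin (37.5% and 62.5% among all genes), with a median log2 ratio of 0.01. Krt10 (0.02), Krt5 (0.01) and Krt14 (0.28) had the most counts, and the 3 lower genes, named after their values were seen, were Krt15 (-0.46), Trp63 (-0.49) and Dsg1a (-0.59). Hepatocyte markers, which skin should lack, were low, and not all of them were at 0. Cyp7a1 had 0 counts in both libraries, Serpina1a had 0 and 3, and Alb, Apoa2 and Ttr had 70, 18 and 8 counts in the control library against 39, 12 and 5. In control skin Alb thus had more counts than Mc5r, Dgat2l6 or Awat2, the least counted of the 37 genes. The libraries also differed in other tissue markers. All 10 markers of the growing hair follicle were 2-fold or more lower in stretched skin (5.02% among all genes). Tchh, Krt71 and Krt25 had the most counts, and the 10 summed to 11810 CPM in control skin against 1950 CPM in stretched skin. These markers were high in control skin although the methods describe hairs in telogen, and the hair cycle stage of each library is not given in the sources used here. All 10 macrophage markers were higher (37.5% among all genes), from 860 to 2062 CPM summed (Lyz2, Csf1r and Mrc1 had the most counts). Of the 10 skeletal muscle markers, 8 were lower and 2 higher (62.5% and 37.5% among all genes), and they summed to 30260 and 23157 CPM. Acta1 had the most counts (-0.07), and the next were the myosin genes Myh4 (-4.57) and Myh1 (1.10), which went in opposite directions. Their part in the results below was not tested, and in bulk skin fewer cells of a type and less RNA per cell cannot be told apart.

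Each gene is given as counts and as the log2 ratio of CPM in stretched over control skin, with an exact 95% interval (Clopper-Pearson) that covers counting error only. Together the 37 genes took 0.907% of all control counts, against 0.708% in stretched skin. Of the 37 genes, 27 were lower in stretched skin and 10 higher, where 62.5% of all genes were lower and 37.5% higher. The interval lay wholly below 0 for 22 genes, above 0 for 7, and included 0 for 8. With scaling by the TMM factors of edgeR in place of total counts, 21 genes were lower and 16 higher, and the interval lay below 0 for 17 and above 0 for 9, where 51.9% of all genes were lower, 26.2% had an interval below 0 and 25.7% above. Among all 14804 genes with at least 20 counts, 36.5% had an interval wholly below 0 and 19.3% wholly above, against 59.5% and 18.9% of the 37 genes. Deeply counted genes have narrow intervals, so these shares depend on depth. The median log2 ratio of the 37 genes was -0.19, with the middle of the genes between -0.52 and 0.05, and that of all 14804 genes was -0.12. The median of the 37 genes thus lay close to that of all genes, while the medians of their roles ranged from -0.74 to 0.45.

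By fold, 7 of the 37 genes were 1.5-fold or more lower (18.9%, with 13.4% among all genes) and 3 were 1.5-fold or more higher (8.11%, with 10.1% among all genes). The 7 lower genes were Fasn, Insig1, Fads2, Acaca, Mc5r, Scd2 and Acly, and the 3 higher genes were Scd3, Dgat2l6 and Awat2. With TMM scaling Acly, Scd2 and Mc5r fell short of 1.5-fold, which left 4 lower genes (10.8%, with 10.2% among all genes). At 2-fold there was 1 gene in each direction, Fasn lower (2.70%, with 5.02% among all genes) and Scd3 higher (2.70%, with 4.98%). The study's own rule requires FPKM values whose product exceeds 10 and whose ratio is at least 2 or at most 0.5. The study took its FPKM from Cufflinks, whereas here the rule was applied to FPKM computed from the deposited counts, each with 1 added, so its calls need not be those of the study. It could be applied to 34 of the 37 genes, all but Awat2, Dgat2l6 and Mc5r, and it called the same genes, Scd3 up and Fasn down, where 2.61% and 2.43% of all genes that passed its filter were called up and down. Fasn was at the threshold of this rule, where a different FPKM could change the call. With each of the 4 other scalings given at the end, Fasn was neither 2-fold lower nor called. With TMM scaling Dgat2l6 was also past 2-fold higher (log2 ratio 1.01). FPKM is CPM per kilobase of exon, so that levels of different genes can be compared.

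**Figure D1:**
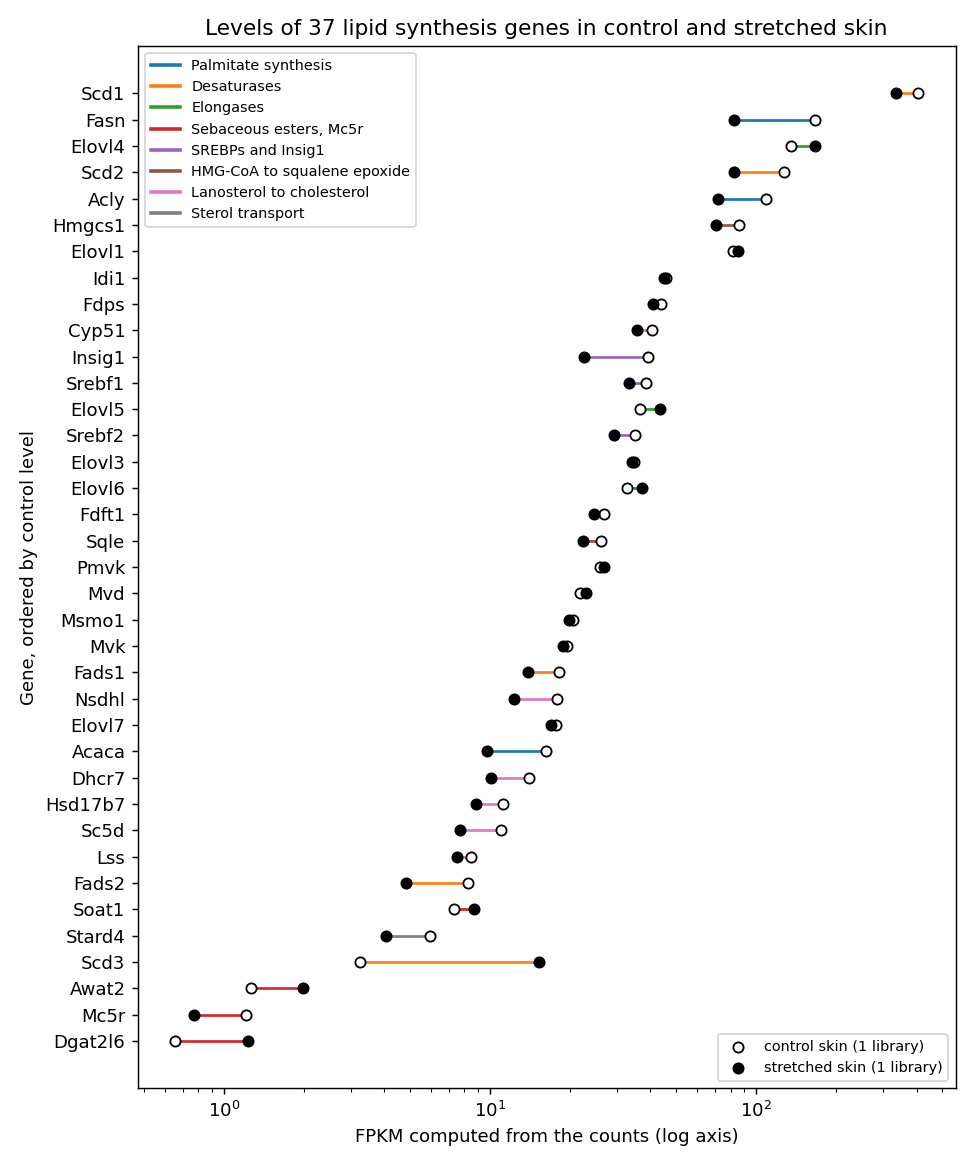
FPKM of each of the 37 genes on a log axis, in control skin (open points) and stretched skin (filled points), with lines coloured by role and 1 library per condition. Scd1 was the highest gene in both libraries, Fasn moved from the second place to the fourth, and Scd3 moved from the 34th to the 24th.

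The enzymes that build palmitate were all lower in stretched skin. Acly, which makes cytosolic acetyl-CoA from citrate, had 8153 counts in control skin against 4434 in stretched skin (log2 ratio -0.60, interval -0.65 to -0.54). Acaca, which carboxylates acetyl-CoA to malonyl-CoA, had 3922 and 1936 counts (-0.74, interval -0.82 to -0.66), and it shares 26.6% of its 76-base stretches with other annotated transcripts, mostly Gm5182. Fasn, the fatty acid synthase, had 25685 and 10498 counts (-1.01, interval -1.04 to -0.98), a level 2.01-fold lower in stretched skin. Fasn lies on chromosome 11 of mm10 from 120805846 to 120824547 on the minus strand, Acly on the same chromosome from 100476353 to 100528000 and Acaca from 84129672 to 84401651. Per length, the level of Fasn went from 166 to 82.3 FPKM, that of Acly from 109 to 72.1 and that of Acaca from 16.2 to 9.73. With TMM scaling the log2 ratio of Fasn was -0.91, short of 2-fold.

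The desaturases did not move together. Scd1, Scd2 and Scd3 encode stearoyl-CoA desaturases, which place the first double bond in palmitate and stearate, and they lie in one cluster, with Scd4 between Scd2 and Scd1, on chromosome 19 of mm10 (Scd3 from 44203269 to 44244016, Scd2 from 44293674 to 44306864, Scd1 from 44394455 to 44407879). Scd1 had 28122 counts in control skin against 19126 in stretched skin (-0.28, interval -0.30 to -0.25), and Scd2 had 9849 and 5236 (-0.63, interval -0.68 to -0.58). Scd3, whose expression in skin is known from the sebaceous gland, went the other way, from 163 to 631 counts (2.23, interval 1.98 to 2.49), a level 4.70-fold higher and the largest ratio of the 37 genes. Per length Scd3 was the lowest of the 5 desaturases in control skin (3.24 FPKM), and in stretched skin (15.3 FPKM) it stood above Fads1 (13.9) and Fads2 (4.82) but far below Scd2 (82.3) and Scd1 (336). The 3 genes share few stretches of read length with other genes, 3.13% for Scd1, 1.74% for Scd2 and 3.17% for Scd3. All shared stretches of Scd3 were shared with Scd1, which was lower in stretched skin. The desaturases of polyunsaturated fatty acids, Fads1 and Fads2, were both lower, Fads1 with 1231 and 777 counts (-0.38, interval -0.51 to -0.25) and Fads2 with 386 and 185 (-0.78, interval -1.04 to -0.52).

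Ratios of a pair of genes within a library do not depend on how the libraries are scaled. There were 0.0058 counts of Scd3 for each count of Scd1 in control skin against 0.0330 in stretched skin, a change of 5.69-fold (exact 95% interval 4.78 to 6.81). Scd1 gained on Scd2 by 1.28-fold (interval 1.23 to 1.33), and Fads2 lost to Fads1, with a ratio of 0.759 relative to control (interval 0.620 to 0.928). For Fasn to Hmgcs1, a fatty acid gene beside a sterol gene, the ratio of the ratios was 0.605 (interval 0.577 to 0.634). The elongase pairs and the SREBP pair had intervals that included 1.

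**Figure D2:**
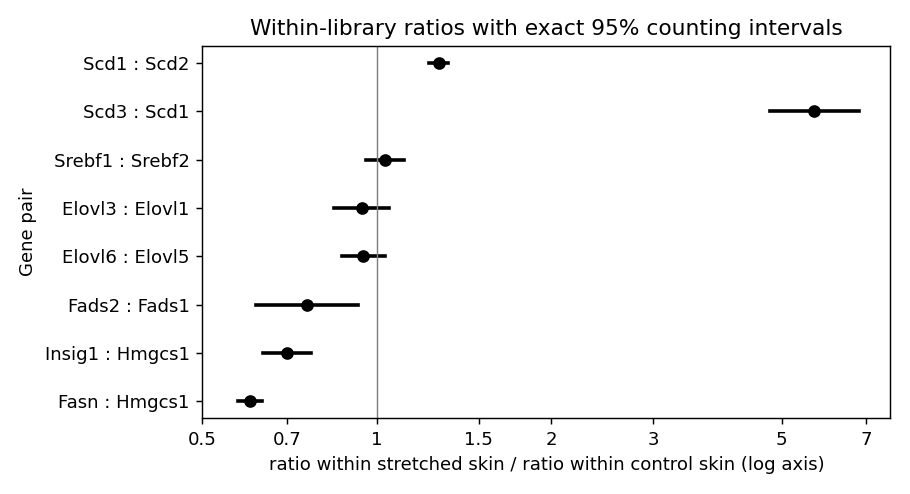
Ratio of the counts of the named gene pairs within stretched skin, divided by the same ratio within control skin, on a log axis with exact 95% intervals of counting error (bars). Scd3 to Scd1 stands at 5.69, and Fasn to Hmgcs1, Insig1 to Hmgcs1 and Fads2 to Fads1 lie below 1.

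The promoter windows shown are those of the 2 genes past 2-fold with total counts, which went in opposite directions. They are taken from RefSeq on GRCm38.p6, the assembly behind mm10, and run from 250 bases before to 50 bases after the annotated start, Fasn at chr11:120824498-120824797 on the minus strand and Scd3 at chr19:44203038-44203337 on the plus strand. Capitals mark CCAAT, the box read by the factor NF-Y, which often works beside SREBP, searched on both strands. In Fasn the box begins at -90, -62 and -59 relative to the start, and the last 2 matches overlap. The Scd3 window holds no match of these letters. The windows of Acaca and Fads2, which were lower, hold none either, and those of Elovl4 and Elovl5, which were higher, hold the box. The part of the box in these directions was not tested.
Fasn: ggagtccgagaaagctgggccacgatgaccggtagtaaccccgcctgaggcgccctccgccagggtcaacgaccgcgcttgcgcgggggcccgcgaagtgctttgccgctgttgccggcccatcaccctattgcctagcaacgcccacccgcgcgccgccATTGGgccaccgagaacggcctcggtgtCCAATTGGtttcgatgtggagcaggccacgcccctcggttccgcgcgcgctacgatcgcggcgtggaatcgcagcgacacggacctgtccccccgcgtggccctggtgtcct
Scd3: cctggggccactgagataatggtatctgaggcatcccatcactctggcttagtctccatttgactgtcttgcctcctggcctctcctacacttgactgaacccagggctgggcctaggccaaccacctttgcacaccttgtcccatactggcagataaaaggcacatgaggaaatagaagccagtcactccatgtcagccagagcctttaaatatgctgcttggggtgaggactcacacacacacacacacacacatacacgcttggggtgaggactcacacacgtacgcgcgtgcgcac

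The elongases, which lengthen fatty acyl chains by a pair of carbons per cycle, differed little between the libraries and none was past 1.5-fold. Elovl4, needed for the ultra long chain fatty acids of epidermal ceramides, had 5801 counts in control skin against 5868 in stretched skin (0.30, interval 0.24 to 0.35), and Elovl5, which acts on polyunsaturated chains, had 1820 and 1790 (0.26, interval 0.16 to 0.35). Elovl6, which takes palmitate to stearate, had 2976 and 2778 (0.18, interval 0.11 to 0.26). These 3 genes were higher in CPM, whereas the intervals of Elovl1 (3154 and 2715 counts, 0.06), Elovl3 (968 and 785 counts, -0.02) and Elovl7 (1002 and 791 counts, -0.06) included 0. With each of the 4 other scalings the interval of Elovl1 lay above 0 (TMM 0.17, interval 0.09 to 0.24). The intervals of Elovl3 (-0.16 to 0.12) and Elovl7 (-0.20 to 0.08) cover values close to 0 on both sides, and with TMM scaling both values turned positive. The median of the 6 elongases was 0.12, against -0.74 for the palmitate enzymes that supply their substrate. Per length Elovl4 had rank 3 among the 37 genes in control skin (135 FPKM) and rank 2 in stretched skin (166 FPKM).

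Of the sebaceous genes, 3 of 4 were higher in stretched skin, as were 37.5% of all genes, and 2 of the 3 had low counts. Dgat2l6 and Awat2 belong to the acyltransferase family that makes wax esters and related lipids of sebum, and they are neighbours on the X chromosome of mm10 (Awat2 from 100402221 to 100442717, Dgat2l6 from 100524838 to 100546144). Dgat2l6 had 44 counts in control skin against 68 in stretched skin (0.91, interval 0.34 to 1.49), and Awat2 had 38 and 49 (0.65, interval 0.01 to 1.30). Their counts are low, at 0.656 and 1.26 FPKM in control skin, so the size of these differences is poorly fixed, and that of Awat2 reached down to nearly 0. Soat1, which esterifies cholesterol, had 1011 and 988 counts (0.25, interval 0.12 to 0.38). Mc5r, the melanocortin receptor of sebocytes, had 67 and 35 counts (-0.66, interval -1.29 to -0.05), and its interval included 0 with each of the 4 other scalings (TMM -0.55, interval -1.19 to 0.06).

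Sebocyte markers outside the 37 genes were of both directions. Of the 10 markers, 7 were higher and 3 lower in stretched skin (37.5% and 62.5% among all genes), with a median log2 ratio of 0.31. Their summed levels were 1216 and 1351 CPM, and none of them was at the floor. The 3 with the most counts were Krt79, a keratin of the sebaceous duct (0.14), Mgst1 (-0.27) and Fa2h, the fatty acid 2-hydroxylase (0.63). Chosen after their values were seen, Awat1, a wax synthase of the same family, had 140 counts in control skin against 275 in stretched skin (1.25, interval 0.96 to 1.56), and Cidea, a lipid droplet protein, had 143 and 229 (0.96, interval 0.65 to 1.27). On the other side were Prdm1, with 849 and 329 counts (-1.09, interval -1.27 to -0.90), and Pparg (-0.59, interval -0.84 to -0.35), which adipocytes also express. The intervals of Scd3 and Dgat2l6 lay wholly above the median of the sebocyte markers, and those of 31 of the 37 genes wholly below it, where 8.96% of all genes lay wholly above and 65.5% wholly below. The part of sebaceous gland content in these values was not tested.

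Adipocyte markers were lower in stretched skin, 10 of 10 (62.5% among all genes), with a median log2 ratio of -0.69 and a range of -0.84 to -0.14. Their summed levels were 5297 and 3952 CPM. None of the 10 was at the floor in either library. Car3 (-0.14), Cfd (-0.64) and Fabp4 (-0.56) had the most counts. Named in addition to these 3, Adipoq, the adipocyte hormone adiponectin, had 3035 counts in control skin against 1466 in stretched skin (-0.77, interval -0.86 to -0.68). Car3, which skeletal muscle also expresses, was the least changed of the 10 markers, and without it the median was -0.74. Fasn was lower than every one of these markers, the interval of Acaca included their median and that of Acly lay above it. Only Fasn among the 37 genes had an interval wholly below the adipocyte median, 29 genes had an interval wholly above it, and the intervals of the remaining 7 included it. Among all genes 4.21% lay wholly below that median and 75% wholly above, so these counts do not set the 37 genes apart. The part of adipocyte content in the lower lipogenic genes was not tested.

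The regulators were lower as well. Srebf1, which encodes SREBP-1, had 3069 counts in control skin against 2178 in stretched skin (-0.21, interval -0.29 to -0.13), and Srebf2, which encodes SREBP-2, had 3545 and 2435 (-0.26, interval -0.34 to -0.19). The ratio of Srebf1 to Srebf2 was 0.866 in control skin and became 0.895 (change of 1.03-fold, interval 0.958 to 1.11). Insig1, the retention factor that is itself a target of SREBP, was the second lowest of the 37 genes, with 1708 and 809 counts (-0.80, interval -0.92 to -0.68). It lies on chromosome 5 of mm10 from 28071363 to 28078662. Relative to Hmgcs1, another SREBP target, Insig1 was at 0.701 of its control ratio (interval 0.638 to 0.770), so the pair did not keep step.

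**Figure D3:**
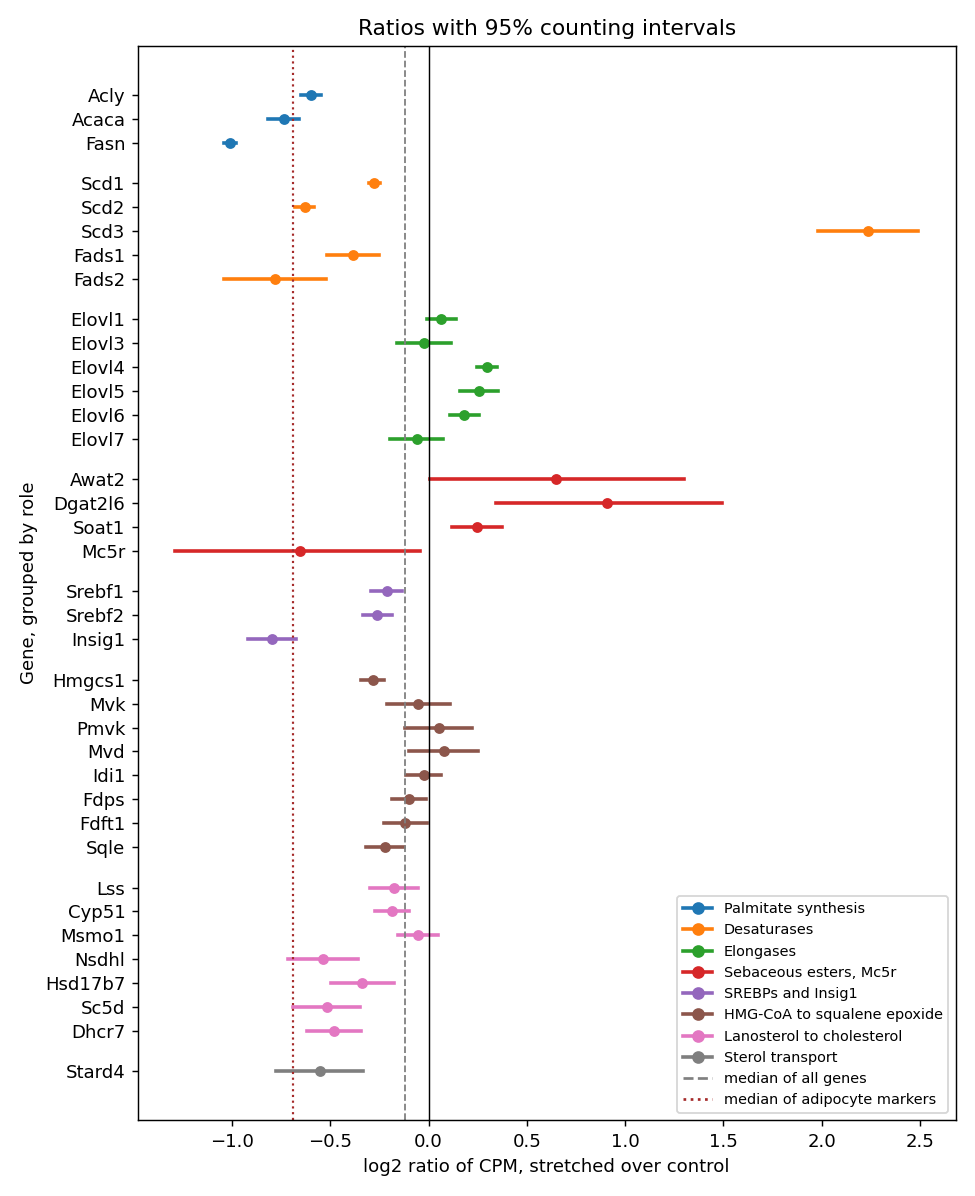
Log2 ratio of CPM, stretched over control skin, of each of the 37 genes with its 95% counting interval (bar), grouped and coloured by role. The dashed line is the median of all genes (-0.12) and the dotted line that of the adipocyte markers (-0.69). Fasn lies below the dotted line, Acaca on it and Acly above it, and Scd3 stands alone at 2.23.

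In the sterol pathway no enzyme of 15 was past 1.5-fold, and 13 were lower in stretched skin (62.5% of all genes were lower). The interval lay below 0 for 10 of the 15 (36.5% of all genes) and above 0 for none. With TMM scaling 9 were lower and 6 higher, and the interval lay below 0 for 6 (26.2% of all genes) and above 0 for Mvd alone. The steps from HMG-CoA to squalene epoxide had a median log2 ratio of -0.08, which became 0.03 with TMM scaling, so the direction of this median depends on the scaling. Hmgcs1, which makes HMG-CoA, had 5598 counts in control skin against 3782 in stretched skin (-0.28, interval -0.34 to -0.23), and Sqle, the squalene epoxidase, had 2050 and 1446 (-0.22, interval -0.32 to -0.12). The kinases and the decarboxylase of the mevalonate steps, Mvk (738 and 586 counts, -0.05), Pmvk (625 and 533 counts, 0.05) and Mvd (571 and 496 counts, 0.08), had intervals that included 0, as did the isomerase Idi1 (2273 and 1838 counts, -0.03). Fdps, which makes farnesyl pyrophosphate, had 2607 and 2002 counts (-0.10, interval -0.18 to -0.02), and Fdft1, the squalene synthase, had 1598 and 1211 (-0.12, interval -0.23 to -0.01). The sign of Fdps changed with TMM scaling (0.003). Reads of Idi1, Fdps and Fdft1 are uncertain, since 23.5%, 23.4% and 21.6% of their stretches are shared with other annotated genes.

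The later steps, from lanosterol to cholesterol, were lower in 7 of 7 genes, with a median of -0.34, and in 6 of 7 with TMM scaling, where Msmo1 turned positive (62.5% and 51.9% of all genes were lower). The interval lay below 0 for 6 of the 7, and for 4 with TMM scaling (36.5% and 26.2% of all genes). The first enzymes of this stretch differed least. Lss, the cyclase that forms lanosterol, had 1299 counts in control skin against 947 in stretched skin (-0.18, interval -0.30 to -0.05), the demethylase Cyp51 had 2543 and 1839 (-0.19, interval -0.27 to -0.10), and the methyl oxidase Msmo1 had 1785 and 1416 (-0.05, interval -0.15 to 0.05). Below them were Nsdhl, which removes a carboxyl group during demethylation, with 723 and 410 counts (-0.54, interval -0.72 to -0.36), and its partner reductase Hsd17b7 with 807 and 526 (-0.34, interval -0.50 to -0.18). Sc5d, the desaturase of the sterol ring, had 757 and 435 counts (-0.52, interval -0.69 to -0.35), and Dhcr7, which carries out the last reduction to cholesterol in one branch, had 1152 and 680 (-0.48, interval -0.62 to -0.34). Stard4, which carries cholesterol between membranes, had 471 and 264 counts (-0.55, interval -0.78 to -0.33). The intervals of Nsdhl, Hsd17b7, Sc5d, Dhcr7 and Stard4 lay wholly below the median of all genes, as did those of the early genes Hmgcs1 and Sqle. Of the 37 genes, 17 lay wholly below that median and 11 wholly above. The share of all genes on either side was not computed, so these counts do not set the later steps apart.

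A promoter window was found for 28 of the 37 genes, and Elovl3, Fads1, Fdft1, Fdps, Mc5r, Scd1, Scd2, Sqle and Stard4 had none. The letters CCAAT, on either strand, were in at least 1 window of each of the 12 sterol synthesis enzymes with a window (some genes have several starts, and not every window of Dhcr7 and Pmvk held them), in 5 of 10 fatty acid enzymes and in 22 of the 28 genes, while 41.1% of all 27025 gene symbols with a window had them. The letters TCACNCCAC, a form of the sterol regulatory element, were in the window of Hmgcs1 alone of the 28 genes, and 1.44% of all 27025 gene symbols had them. No window of the 28 genes held TCANNTGA, an E-box form of the SREBP site, which 8.39% of all 32851 windows of this length held. A match is a description of the sequence only. Below are the windows of Hmgcs1 (chr13:119690101-119690400, plus strand), the sole gene with both motifs, and of Sc5d (chr9:42264251-42264550, minus strand), one of the lowest sterol genes. Capitals mark CCAAT on either strand and, in Hmgcs1, the single run of TCACNCCAC that begins at -137 relative to the start, and no CCAAT match overlaps it.
Hmgcs1: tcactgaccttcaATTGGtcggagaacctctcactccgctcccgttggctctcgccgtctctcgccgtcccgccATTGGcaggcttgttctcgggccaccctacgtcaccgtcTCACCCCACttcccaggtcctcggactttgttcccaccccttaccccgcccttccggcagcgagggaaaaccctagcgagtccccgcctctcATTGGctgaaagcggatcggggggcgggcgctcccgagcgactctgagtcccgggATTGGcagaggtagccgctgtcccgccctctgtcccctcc
Sc5d: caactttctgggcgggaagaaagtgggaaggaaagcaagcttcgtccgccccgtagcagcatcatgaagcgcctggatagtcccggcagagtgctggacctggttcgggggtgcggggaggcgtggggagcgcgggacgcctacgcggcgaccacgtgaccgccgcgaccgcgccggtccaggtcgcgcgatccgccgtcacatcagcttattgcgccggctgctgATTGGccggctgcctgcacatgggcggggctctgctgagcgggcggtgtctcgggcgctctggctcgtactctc

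Other genes of these pathways were taken from 2 lists. Of 26 other genes of fatty acid and triglyceride synthesis, 25 had at least 20 counts, and Elovl2, with 2 and 0 counts, was at the floor. Of the 25, 19 were lower and 6 higher (62.5% and 37.5% among all genes). The interval lay wholly below 0 for 17 and above 0 for 1 (36.5% and 19.3% among all genes), and 11 were 1.5-fold or more lower (44.0%, with 13.4% among all genes). With TMM scaling the interval lay below 0 for 17 and above 0 for 4 (26.2% and 25.7% among all genes). With the same scaling 6 of the 25 remained 1.5-fold or more lower (24%, with 10.2% among all genes). The median log2 ratio of the 25 with total counts was -0.42. Thrsp, a lipogenic protein of adipose tissue and liver, was the lowest with 2301 counts in control skin against 850 in stretched skin (-1.16, interval -1.27 to -1.04) and was the only one past 2-fold. Next came Mlxipl, the carbohydrate response factor ChREBP (-0.88, interval -1.08 to -0.69), and the triglyceride synthesis genes Gpam (-0.85) and Agpat2 (-0.82). The highest were Acsl4, an acyl-CoA synthetase of polyunsaturated chains (0.36, interval 0.19 to 0.53), Hacd2 (0.11), Scd4 (0.10, with 17 and 15 counts) and Hacd1 (0.06), and the intervals of the last 3 included 0.

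The 20 other genes of sterol synthesis, uptake, regulation and efflux had a median of -0.17, with 13 lower and 7 higher (62.5% and 37.5% among all genes). Their interval lay wholly below 0 for 8 (40.0%, with 36.5% among all genes) and above 0 for 5 (25%, with 19.3%). With TMM scaling 11 were lower and 9 higher. The interval then lay below 0 for 5 and above 0 for 7 (26.2% and 25.7% among all genes), so the balance depends on the scaling. The summed level of the 20 genes was 1985 CPM in control skin against 1989 CPM in stretched skin. The highest were Abcg1 (341 and 502 counts, 0.84, interval 0.64 to 1.04) and Abca1 (1538 and 1714 counts, 0.44, interval 0.34 to 0.54), which export cholesterol from cells, with Npc2, which moves cholesterol out of lysosomes (2314 and 2918 counts, 0.62, interval 0.54 to 0.69), and the isomerase Ebp (0.23, interval 0.06 to 0.41). The lowest were Lbr, a sterol reductase that is also the lamin B receptor (-0.76, interval -0.89 to -0.64), Nr1h3, which encodes the sterol sensor LXR alpha (-0.42, interval -0.72 to -0.12), Insig2 (-0.29) and Mbtps1 (-0.26). Abcg1, Abca1 and Npc2 are also strongly expressed in macrophages, whose 10 markers were all higher with a median of 1.34, and the part of macrophage content in these values was not tested.

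**Figure D4:**
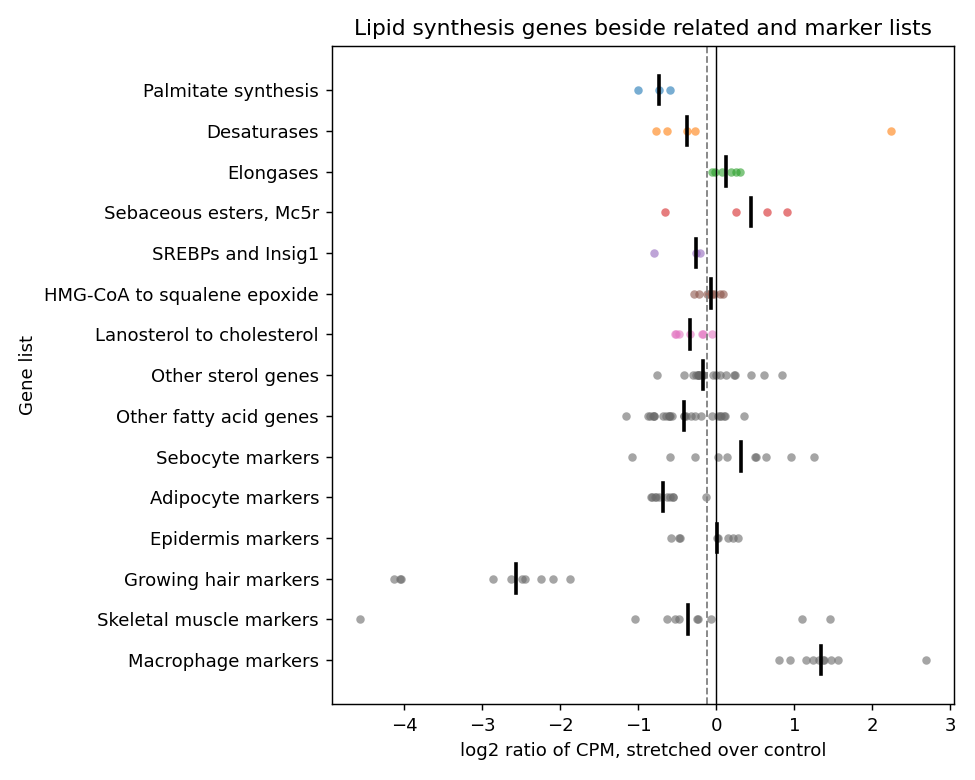
Log2 ratio of CPM, stretched over control skin, of each gene with at least 20 counts (points) and the median of its list (black bars), for the roles of the lipid synthesis genes (coloured; the single sterol transport gene is left out), related pathway genes and tissue markers (grey). The dashed line is the median of all genes. The medians of palmitate synthesis (-0.74) and adipocyte markers (-0.69) lie together, and those of growing hair (-2.57) and macrophage markers (1.34) lie far to either side.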

How the data were processed

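RNA-seq was carried out on 1 library of stretched and 1 library of non-stretched whole-layer skin, grouped by the treatment label. The authors deposited raw read counts for 24421 gene symbols, without normalization. Per the methods and labels, single-end 76-base reads passed a quality filter before TopHat2 aligned them to mm10, and Cufflinks gave the FPKM of the study, which were not used here. The counter, its annotation, its strand setting and its handling of shared reads are not given in the sources used here. The counts summed to 14152379 and 11648655.

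From the counts, CPM used the total of each library and FPKM also the union of exons in GENCODE M21 (23376 symbols matched by name, 670 by synonym, 375 not matched). Ratios carry exact 95% Clopper-Pearson intervals, and pairs of genes the exact conditional interval of the odds ratio. Both cover counting error only, and reads are not independent molecules. Values of 3 counts or fewer were set to 3 in ratios. Lists of genes used those with at least 20 counts over both libraries. Shared stretches are the 76-base words of a gene's transcripts found in transcripts of another gene on either strand. No test across replicates was possible, and no p-value is given. All 37 genes are named, with the 4 highest and 4 lowest of each list of other pathway genes, any past 2-fold, and the 3 markers with the most counts and any at the floor in each marker list. The genes and lists were chosen with earlier results of these data known. The alternatives replaced the totals with TMM factors from edgeR 4.0.16, with size factors from DESeq2 1.42.0, with the upper quartile, or with totals that leave out the top 50 genes. Others changed the minimum count, pseudocount, filter or length, or dropped genes with at least 10% shared stretches. The calculation of the ratio and its interval was checked on simulated counts with counting error only. That check does not cover variation between animals or libraries. The work used Python 3.11.15 (scipy 1.17.1, pandas 2.3.3, numpy 2.4.6; figures with matplotlib 3.10.9) and R 4.3.3.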

Additional observations from a re-analysis of the deposited data

How the results depend on the processing

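Another scaling adds one shift to every log2 ratio. The shift was 0.10 for TMM and for the upper quartile, 0.11 for median of ratios and 0.06 for totals that leave out the top 50 genes. The median of the 37 genes moved from -0.19 to -0.084 (TMM), -0.076 (median of ratios) and -0.085 (upper quartile). Genes 1.5-fold or more lower numbered 4 in place of 7 with each of these 3 scalings (TMM 4, median of ratios 4, upper quartile 4), which left Fasn, Insig1, Fads2 and Acaca, and genes 2-fold or more higher numbered 2 in place of 1 (Dgat2l6 joined Scd3). Fasn was no longer 2-fold lower, nor called by the study's rule, with any of the 4 scalings, which left 0 genes in each count (TMM 0, median of ratios 0, upper quartile 0, totals without the top 50 genes 0). Fdps turned positive at 0.0029 (TMM), 0.011 (median of ratios) and 0.0017 (upper quartile), and the median of the early sterol steps did so too. Of the 148 values of single genes under another scaling, 58 lay outside the counting interval of the reported value. The signs of Elovl3, Elovl7, Mvk, Idi1 and Msmo1, whose intervals included 0, also turned positive under all 4 scalings. Of the other fatty acid genes, 6 in place of 11 were 1.5-fold lower with TMM, median of ratios or upper quartile. With these 3 scalings 4 in place of 1 of them had an interval above 0. Of the 20 other sterol genes, 7 in place of 5 had an interval above 0 with the same scalings. Below 0 there were 5 in place of 8 (TMM and upper quartile) or 4 (median of ratios). Scd3 was called under every alternative of the study's rule. Minimum counts, pseudocounts, the EV filter, CPM in place of FPKM, transcript length and shared stretches changed no count of genes by more than 1.5 times, and left the median of the 37 genes between -0.21 and -0.19. For the ratios of gene pairs no alternative was run, since no scaling or length changes them. No paired analysis was possible because each condition has a single library, so that no library could be left out either. Depth limits Awat2, Dgat2l6 and Mc5r most.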
